A study of Homo sapiens with 4 samples.

Results

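The 7SK RNA (RN7SK) and the protein genes of its particle and of the kinase it holds are described here: HEXIM1, HEXIM2, LARP7, MEPCE, CDK9, CCNT1 and CCNT2. They make up 8 of the 60279 gene identifiers in the human count table, and were matched by symbol or by annotated gene identifier. All 8 were among the 17322 genes with enough reads to be tested, and all 8 have a deposited synthesis rate. The group was chosen by its measured reads and rates, that is the raw and spike-in scaled counts after 15 min and after 5 min and the deposited rates, so the difference between label times is given for the members as a description. No p is given for them, and their calls in the fit over all genes are only counted beside the share of all genes called.

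The data are 4 TT-seq libraries of K562, an established human chronic myeloid leukaemia line. TT-seq adds 4-thiouridine (4sU) to growing cells, fragments the RNA and purifies the pieces that carry the label, so that reads come mainly from RNA made during the label. The cells were labelled for 15 min (2 libraries) or for 5 min (2 libraries). Both groups are untreated apart from 4sU, and RNA of the fly cell line S2 was added to each sample before sonication as a spike-in.

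Human reads assigned to genes numbered 5051370 and 4726327 in the 15 min libraries, against 4339981 and 4695405 in the 5 min libraries. Fly reads numbered 318710 and 308978 in the 15 min libraries, against 897018 and 803914 in the 5 min libraries. Values are given on a fly scale (reads per 1000 fly reads, which follows the amount of labelled RNA relative to the spike-in) and on a share scale (CPM, counts per 1000000 human reads, with TMM scaling). Of 9 erythroid and K562 markers, 9 were above 1 CPM in every library, and summed to 1786 to 1821 CPM after 15 min, against 2533 to 2748 CPM after 5 min. Of 7 markers of other cell types, 3 were above 1 CPM in every library and MS4A1, a B cell marker, was at 0, with sums of 116 CPM in both 15 min libraries, against 173 to 186 CPM in the 5 min libraries. The part of these marker differences in the results below was not tested.

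The positive transcription elongation factor P-TEFb is a kinase, CDK9, bound to cyclin T1 or cyclin T2, and it releases paused RNA polymerase II into elongation. Much of it is held inactive in a particle built on the 7SK RNA, a small nuclear RNA made by RNA polymerase III. MEPCE caps the 5′ end of the RNA, LARP7 binds its 3′ end, and HEXIM1 or HEXIM2 binds the RNA and inhibits the kinase.

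RN7SK (ENSG00000202198) lies at chr6:52995620-52995950 on the plus strand of GRCh38 (hg38) and is a single exon of 331 bases. It is printed because it alone of the members was lower after 15 min on both scales, with its GATC motifs in capitals, the sequence motif to which HEXIM proteins are known to bind. These start at bases 13, 42 and 64 counted from the 5′ end, and bases 1 to 300 are shown. RN7SKP72, an annotated 7SK pseudogene at chr18:1323794-1324085 on the minus strand inside LINC00470, is printed beside it because it keeps 91.3% identity over 240 aligned columns and could share reads. Both come from the GENCODE 29 transcripts. A second entry named RN7SK there, absent from the count table, shares 328 bases with ENSG00000202198 on the same strand.
RN7SK: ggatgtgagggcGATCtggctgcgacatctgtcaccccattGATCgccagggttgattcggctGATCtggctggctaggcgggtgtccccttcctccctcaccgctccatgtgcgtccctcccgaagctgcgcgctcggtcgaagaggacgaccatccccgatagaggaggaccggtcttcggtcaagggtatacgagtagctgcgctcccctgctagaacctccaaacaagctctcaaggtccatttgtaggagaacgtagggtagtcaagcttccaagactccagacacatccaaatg
RN7SKP72: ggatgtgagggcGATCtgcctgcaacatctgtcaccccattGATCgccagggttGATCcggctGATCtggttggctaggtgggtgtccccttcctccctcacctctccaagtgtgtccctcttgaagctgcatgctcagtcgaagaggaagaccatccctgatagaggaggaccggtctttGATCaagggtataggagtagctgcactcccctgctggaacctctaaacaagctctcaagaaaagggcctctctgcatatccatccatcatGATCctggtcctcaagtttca

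RN7SK reads were lower after 15 min than after 5 min on both scales. All 7 protein genes were called higher per fly read, as were 98.4% of all tested genes. How many of the RN7SK reads came from unlabelled RNA was not measured. RN7SK had 4607 and 8162 reads in the 15 min libraries, against 24253 and 33087 reads in the 5 min libraries. Scaled to the spike-in, that is 14.5 and 26.4 reads per 1000 fly reads after 15 min, against 27.0 and 41.2 after 5 min. The label times did not overlap on the fly scale, but the higher 15 min library and the lower 5 min library lay close together. The fitted difference was -0.74 ± 0.194 on the log2 scale (SE of the edgeR fit, n = 2 each), or 0.599-fold. That SE borrows from the spread of other genes, as does that of DESeq2, which gave -0.74 with a wider SE of 0.517. The edgeR difference came to -0.37 without 15 min replicate 1 and -1.24 without 15 min replicate 2. Without 5 min replicate 1 it came to -1.01 and without 5 min replicate 2 to -0.40, always lower after 15 min.

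In share of human reads the gap was wider. RN7SK took 888 and 1676 CPM after 15 min, against 5791 and 7408 CPM after 5 min. As a percentage of human reads it averaged 0.132% ± 0.0576 (SD, n = 2) after 15 min, against 0.632% ± 0.103 (SD, n = 2) after 5 min. Its share difference was -2.37 ± 0.505 (log2, SE), or 0.194-fold, and 0.0173% of the tested genes had a lower one. By reads it ranked 47 and 18 among human genes in the 15 min libraries, against 2 and 2 in the 5 min libraries.

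RN7SK also varied more between libraries of a label time than most genes. Replicate 2 exceeded replicate 1 by 1.89-fold in CPM after 15 min and by 1.28-fold after 5 min, where the median gene of 11980 differed by 1.08-fold in either. A smaller gap was seen in 99.9% of these genes after 15 min and in 90.6% after 5 min. Within a replicate number, the 15 min over 5 min ratio on the fly scale was 0.535 for replicate 1 and 0.642 for replicate 2.

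**Figure D1:**
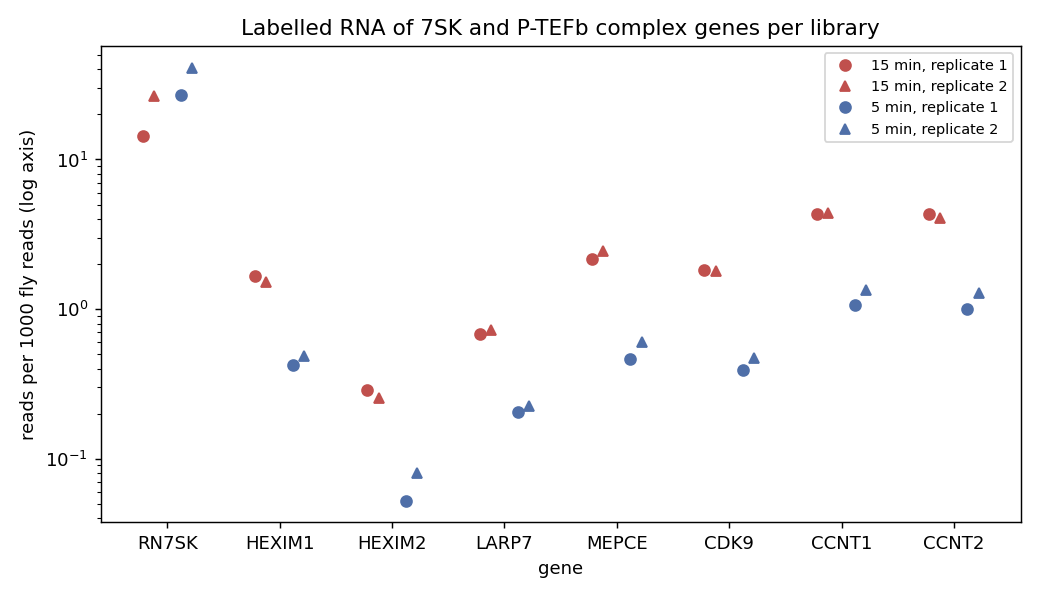
Reads per 1000 fly spike-in reads of each of the 8 genes on a log axis, with 15 min libraries (red) left of 5 min libraries (blue), 1 point per library, circles for replicate 1 and triangles for replicate 2. RN7SK is the gene whose 15 min libraries (14.5 and 26.4) lie below its 5 min libraries (27.0 and 41.2).

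The inhibitors HEXIM1 and HEXIM2 are neighbours on the plus strand of chromosome 17. HEXIM1, at chr17:45148502-45152101, is a single exon, while HEXIM2, at chr17:45160700-45170040, has 6 merged exons. HEXIM1 had 533 and 470 reads after 15 min, against 381 and 389 after 5 min. Per 1000 fly reads, HEXIM1 stood at 1.67 and 1.52 after 15 min, against 0.425 and 0.484 after 5 min, which do not overlap (3.52-fold, log2 1.81 ± 0.171, SE). HEXIM2, its paralogue, had 91 and 79 reads after 15 min, against 47 and 64 after 5 min. Its fly-scaled values were 0.286 and 0.256 after 15 min, against 0.0524 and 0.0796 after 5 min, again with no overlap (4.12-fold, log2 2.04 ± 0.228, SE). In share, HEXIM1 differed by 0.16 ± 0.0821 and HEXIM2 by 0.40 ± 0.188 (log2, SE). Both overlap the antisense gene AC138150.1, which had 15 and 21 reads after 15 min, against 13 and 11 after 5 min. The strand setting of the counting was not stated, so reads of a gene and its antisense partner may not be told apart.

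The HEXIM1 promoter window is printed because it is the only 1 of 12 member windows, from the 7 protein genes, to hold TATAAA on either strand. No window was searched for RN7SK. It spans chr17:45148225-45148524 on the plus strand of GRCh38.p14 in the RefSeq table, from 250 bases before the start to 50 after. The motif, in capitals, begins 29 bases before this RefSeq start, which lies upstream of the GENCODE 29 start given above. Of all 35116 windows of this length, 11.5% hold the motif on either strand. The match is a description of these letters.
HEXIM1 promoter: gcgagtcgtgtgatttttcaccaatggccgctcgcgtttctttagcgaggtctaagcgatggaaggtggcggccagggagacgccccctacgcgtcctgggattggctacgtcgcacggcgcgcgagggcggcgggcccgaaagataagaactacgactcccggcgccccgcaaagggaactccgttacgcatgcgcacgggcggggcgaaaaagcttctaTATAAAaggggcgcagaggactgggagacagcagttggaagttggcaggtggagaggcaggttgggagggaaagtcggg

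MEPCE and LARP7, which bind the ends of the 7SK RNA, differed in the size of the gap between label times. MEPCE, at chr7:100428790-100434126, had 688 and 757 reads after 15 min, against 418 and 482 after 5 min. That is 2.16 and 2.45 per 1000 fly reads after 15 min, against 0.466 and 0.600 after 5 min, the highest fold of the group at 4.33 (log2 2.11 ± 0.171, SE). LARP7, at chr4:112636964-112657592, had 218 and 225 reads after 15 min, against 183 and 180 after 5 min. Its fly-scaled values were 0.684 and 0.728 after 15 min, against 0.204 and 0.224 after 5 min (3.30-fold, log2 1.72 ± 0.184, SE). Neither gene overlapped between label times on the fly scale. In share, MEPCE was 133 and 155 CPM after 15 min, against 99.8 and 108 CPM after 5 min, with no overlap. LARP7 was 42.0 and 46.2 CPM after 15 min, against 43.7 and 40.3 CPM after 5 min, and here the label times overlapped. Its share difference was 0.07 ± 0.116 (log2, SE) and ranged between -0.019 and 0.18 over the alternatives. LARP7 shares 32 bases with ZGRF1 and 3576 with the antisense gene AC106864.1, both on the other strand, where it also overlaps microRNA genes. AC106864.1 had 6 and 9 reads after 15 min, against 7 and 7 after 5 min. MEPCE shares 203 bases with ZCWPW1, also on the other strand.

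The kinase gene CDK9, at chr9:127785679-127790787, had 585 and 551 reads after 15 min, against 351 and 380 after 5 min. Per 1000 fly reads it stood at 1.84 and 1.78 after 15 min, against 0.391 and 0.473 after 5 min (4.19-fold, log2 2.07 ± 0.172, SE). Its share was 113 CPM in both 15 min libraries, against 83.8 and 85.1 CPM after 5 min. The label times did not overlap on either scale.

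CCNT1, at chr12:48688458-48716998 on the minus strand, encodes cyclin T1, and CCNT2, at chr2:134918235-134959342, encodes cyclin T2. CCNT1 had 1386 and 1358 reads after 15 min, against 955 and 1083 after 5 min, and CCNT2 had 1385 and 1249 reads after 15 min, against 904 and 1031 after 5 min. On the fly scale CCNT1 was 3.63-fold higher after 15 min (log2 1.86 ± 0.171, SE), with means of 4.37 ± 0.0328 and 1.21 ± 0.200 (SD, n = 2 each) at 15 and 5 min. CCNT2 was 3.66-fold higher (log2 1.87 ± 0.171, SE), with means of 4.19 ± 0.214 and 1.15 ± 0.194 (SD, n = 2 each) at 15 and 5 min. The paralogues thus differed between label times by nearly the same fold, and neither overlapped between label times. Their share differences were 0.21 ± 0.0634 for CCNT1 and 0.23 ± 0.0639 for CCNT2 (log2, SE). CCNT2 shares 476 bases with CCNT2-AS1 on the other strand, which had 5 and 3 reads after 15 min, against 1 and 2 after 5 min.

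Over all tested genes the median fly-scale fold was 3.20, with quartiles of 2.57 and 4.01, beside a median of 3.66 for the 7 protein members. By edgeR's quasi-likelihood test at an adjusted p of 0.05, 7 of the 8 members were called higher after 15 min, where 98.4% of all genes were, and 1 was called lower, where 0.0115% were. The same counts held for label times that did not overlap, with 99.0% of all genes higher and 0.0404% lower. In share, 4 members were called higher (MEPCE, CDK9, CCNT1 and CCNT2), beside 16.8% of genes, and 0 lower, beside 21.3% (1 at an unadjusted p under 0.05 and 1 by DESeq2, in both RN7SK). In share, 6 were higher and 1 lower without overlap, against backgrounds of 34.6% and 33.0%. Because the contrast chose the members, nothing is read from these counts. On the fly scale the call of RN7SK as lower was lost without 15 min replicate 1, 5 min replicate 1 or 5 min replicate 2. The cyclin calls were lost without some libraries: CCNT1 came to 0.16 without 15 min replicate 2 and 0.14 without 5 min replicate 1, and CCNT2 to 0.19 without 15 min replicate 1 and 0.15 without 5 min replicate 1.

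**Figure D2:**
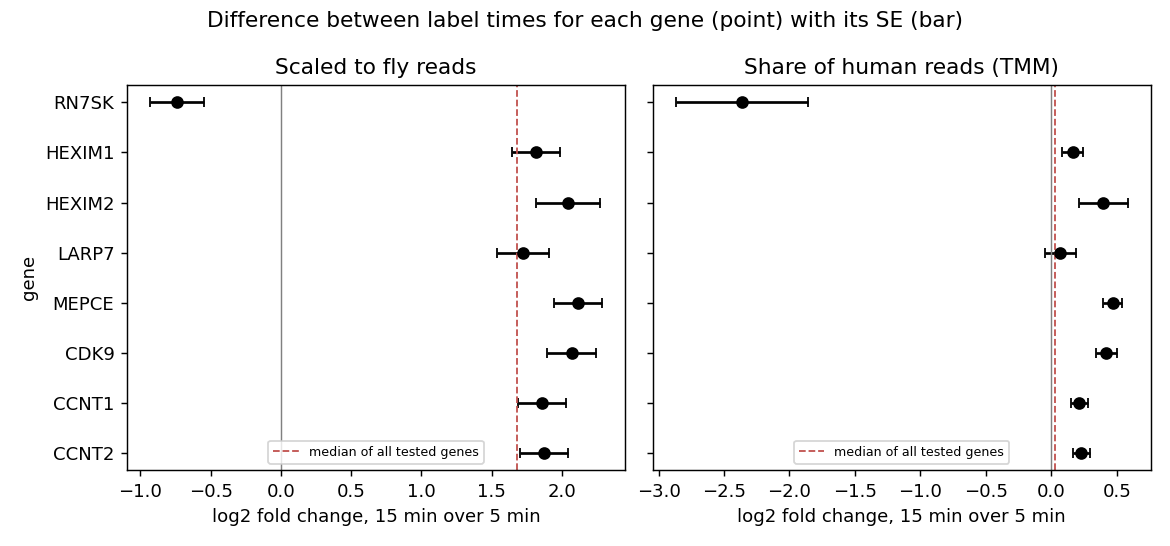
Log2 fold change, 15 min over 5 min, of each member on the fly scale and on the share scale, with standard errors and the median of all tested genes. RN7SK lies at -0.74 and -2.37, and the 7 protein genes lie between 1.72 and 2.11 on the fly scale.

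Levels can be compared between genes per kilobase of merged exon. After 15 min RN7SK stood at 3873 ± 1683 CPM per kb, followed by MEPCE at 42.1 ± 4.72, CDK9 at 37.6 ± 0.0861, CCNT1 at 37.0 ± 1.12, CCNT2 at 28.8 ± 0.820, HEXIM1 at 27.7 ± 1.23, LARP7 at 10.8 ± 0.723 and HEXIM2 at 8.28 ± 0.458 (SD, n = 2). CDK9 and CCNT1 overlapped, as did CCNT2 and HEXIM1. After 5 min RN7SK stood at 19938 ± 3454 CPM per kb, and CCNT1 came next at 31.9 ± 1.38, overlapping MEPCE at 30.4 ± 1.68 (SD, n = 2). LARP7 and HEXIM2 were the lowest of the group at both label times.

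Reads of labelled RNA also come from introns, and whether exons or whole genes were counted was not stated, so the order was also taken per kilobase of gene span. There HEXIM1, which has no intron, followed RN7SK at both label times, with 27.7 CPM per kb after 15 min, beside 27.0 for MEPCE, 22.1 for CDK9, 9.56 for CCNT1 and 6.37 for CCNT2. HEXIM1 and MEPCE overlapped there after 15 min and not after 5 min. The place of HEXIM1 among the protein genes thus depends on the length used.

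The ratio of paralogues and partners in reads per exon kb could be followed across label times. The CCNT1 over CCNT2 ratio was 1.23 and 1.34 after 15 min, against 1.30 and 1.29 after 5 min, which overlap. The CDK9 over CCNT1 ratio was 1.04 and 0.998 after 15 min, against 0.904 and 0.863 after 5 min, and MEPCE over LARP7 was 3.77 and 4.02 after 15 min, against 2.73 and 3.20 after 5 min, both without overlap. These ratios set the kinase beside its cyclin and the cap enzyme beside the 3′ end protein. How many gene pairs separate in this way over all genes was not measured. For single genes in share, 34.6% were higher and 33.0% lower without overlap, so nothing is read from the separation of these ratios. HEXIM1 exceeded HEXIM2 by 3.32-fold and 3.37-fold after 15 min, against 4.59-fold and 3.44-fold after 5 min. RN7SK exceeded HEXIM1 by 94.0-fold and 189-fold after 15 min, against 692-fold and 925-fold after 5 min, and those ranges lie far apart.

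The deposited synthesis rates, 1 value per gene with no replicate error and no stated unit, placed RN7SK first of 11777 genes at 54.2. The next gene was the mitochondrial MT-CO1 at 7.36. MEPCE had a rate of 0.0687 (rank 688), CDK9 0.0631 (rank 791), CCNT2 0.0602 (rank 864), CCNT1 0.0586 (rank 908) and HEXIM1 0.0456 (rank 1325), all above the median gene at 0.0114. LARP7 had 0.0150 (rank 4904). HEXIM2 stood apart at 0.000637, with 7.48% of genes below it. Its rate was 71.7 times below that of HEXIM1 and 23.5 times below that of LARP7, although its reads per exon kb were 3.32 to 4.59 times below HEXIM1 and 1.20 to 1.94 times below LARP7 in the 4 libraries.

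**Figure D3:**
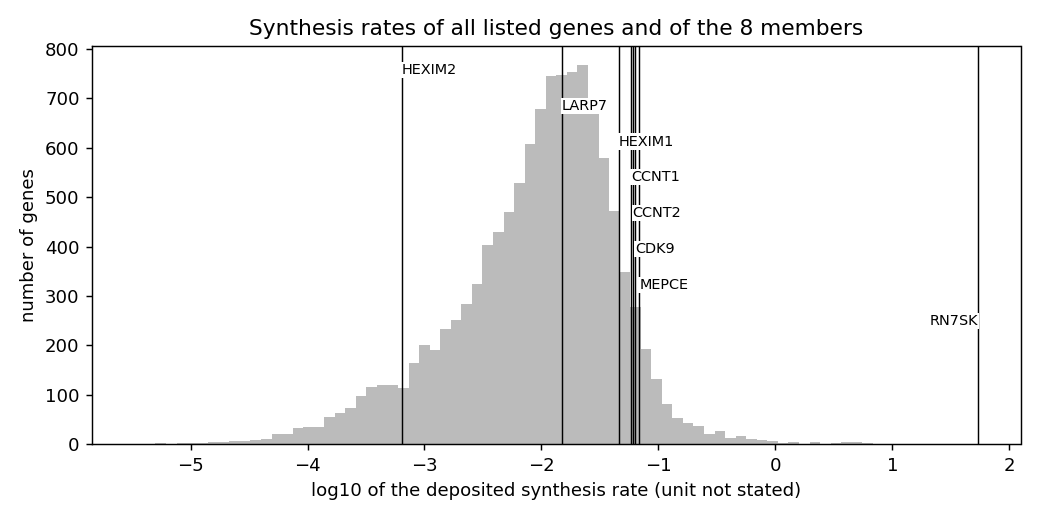
Distribution of the deposited synthesis rates over genes on a log10 axis, with the 8 members marked. RN7SK (54.2) is at the far right, 5 protein genes lie between 0.0456 and 0.0687, and HEXIM2 (0.000637) lies in the lower tail.

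The genes whose pattern over the 4 libraries lay nearest to RN7SK were SCARNA5 (distance 0.625), CFD (0.871), RPS2P5 (0.979), HSPG2 (0.985) and LINC00641 (0.995). Distance is Euclidean on centred log2 CPM, and its median over 11979 genes was 2.49. SCARNA5, a small Cajal body RNA, had 26 and 28 reads after 15 min, against 84 and 145 after 5 min. None of the other members was among these genes.

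Reads at annotated 7SK copies were higher after 15 min on the fly scale. The 293 identifiers named RN7SKP, 89 of them with a read, summed to 908 and 809 reads after 15 min, against 576 and 576 after 5 min. That is 2.85 and 2.62 per 1000 fly reads after 15 min, against 0.642 and 0.716 after 5 min, with no overlap, as for 99.0% of all tested genes. Of the 29 tested, 5 rose, beside 16.8% of all genes, and 0 fell, beside 21.3%, in share (median log2 0.36, beside 0.03 over all genes; by edgeR, 0 also fell at an unadjusted p under 0.05, and 0 by DESeq2). The most read were RN7SKP64 with 65 and 48 reads after 15 min, against 56 and 58 after 5 min, then RN7SKP23 with 67 and 44, against 38 and 29, and RN7SKP72 with 37 and 42, against 31 and 25. RN7SKP64 matched RN7SK at 78.3% over 184 aligned columns. RN7SKP23, an entry of 4301 bases that overlaps COG7 on the other strand, aligned to RN7SK over only 30 columns. None of these 3 passed the test in share, and since they resemble RN7SK or lie in other genes their counts are uncertain.

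**Figure D4:**
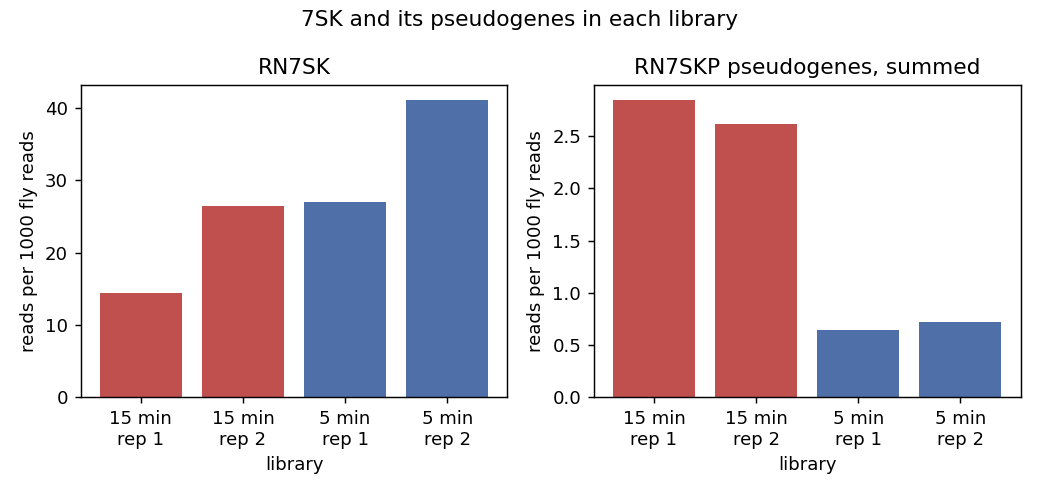
Reads per 1000 fly reads of RN7SK (left) and of the summed 7SK pseudogenes (right), 1 bar per library, 15 min left of 5 min, on separate axes. The pseudogene sum is 2.85 and 2.62 after 15 min, against 0.642 and 0.716 after 5 min, while RN7SK is 14.5 and 26.4 after 15 min, against 27.0 and 41.2 after 5 min.

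Other RNAs made by RNA polymerase III were thinly covered. Of 18 found in the table, 6 (RN7SL1, RN7SL2, RPPH1, RMRP, RNY4 and VTRNA1-2) had 0 reads in every library and 3 had enough reads to be tested. All 18 summed to 237 and 187 reads after 15 min, against 159 and 188 after 5 min. RNU6-2, a U6 spliceosomal RNA and the most read, had 182 and 138 reads after 15 min, against 123 and 131 after 5 min (share log2 0.12, edgeR adjusted p = 0.536). VTRNA1-3, a vault RNA, and BCYRN1 did not pass either (edgeR adjusted p = 0.889 and 0.158).

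The 4sU label enters at U, and RN7SK has 74 T among its 331 bases, or 22.4%, where the median over 17095 tested genes with a transcript sequence was 25.3%. The 7 protein genes, by their longest transcript, ranged between 16.9% for HEXIM2 and 31.9% for CCNT2.

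Other genes of pause release and elongation, a list of 43 with 40 tested, were all called higher on the fly scale, as were 98.4% of all genes, with a median of 2.89-fold beside 3.20-fold over all genes. In share, 4 rose, 18 fell and 18 did not pass the edgeR test, and the median was -0.12 (log2), beside 16.8% of all genes higher, 21.3% lower and a median of 0.03. With scaling by total counts 7 rose and 12 fell. Separate cultures for libraries of 1 label time are not stated in the labels, so these p-values measure the spread between libraries, which may be technical. In bulk libraries, fewer cells making an RNA and less RNA per cell cannot be told apart.

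Of 3 tested genes of BET proteins, which bring P-TEFb to acetylated chromatin, 1 rose in share and 2 did not pass. The 1 that rose was BRD2, with 1016 ± 5.41 CPM after 15 min, against 684 ± 78.2 CPM after 5 min (SD, n = 2 in either; log2 0.57, edgeR adjusted p = 1.89e-19). The cyclin L genes also rose, CCNL1 by 0.25 (edgeR adjusted p = 0.00016) and CCNL2 by 0.30 (edgeR adjusted p = 5.12e-05), though CCNL2 was lost without 5 min replicate 2 (edgeR adjusted p = 0.0709, with a range of 2.48e-08 to 0.0709 over 8 alternatives). In the super elongation complex 1 of 7 tested rose, which was ELL (log2 0.34, edgeR adjusted p = 0.00791). There 1 fell, which was MLLT1 (log2 -0.90, edgeR adjusted p = 5.43e-14), and 5 did not pass. Of all genes, 16.8% rose and 21.3% fell.

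In share, of 8 factors known to help release P-TEFb from the particle or act with it, 6 fell and 2 did not pass, where 21.3% of all genes fell. The pathway list was chosen with earlier results of these data known, so nothing is read from the counts of its groups. PPP1CA, a catalytic subunit of protein phosphatase 1, was at 47.6 CPM after 15 min and 99.5 CPM after 5 min (log2 -1.07, edgeR adjusted p = 1.11e-28). TRIM28 was at 225 CPM after 15 min and 414 CPM after 5 min (log2 -0.88, edgeR adjusted p = 1.2e-43), and DDX21, an RNA helicase, at 601 CPM after 15 min and 889 CPM after 5 min (log2 -0.57, edgeR adjusted p = 3.56e-19). Of 6 other 7SK-binding proteins or relatives of the particle's proteins, 4 fell. HNRNPA2B1, a nuclear RNA-binding protein, fell by 0.21 (edgeR adjusted p = 0.00353), a call lost without 15 min replicate 2 (edgeR adjusted p = 0.0721) and with scaling by total counts (edgeR adjusted p = 0.178, in a range of 0.000783 to 0.178 over 8 alternatives), while HNRNPA1 differed by -0.12 (edgeR adjusted p = 0.101). Of 7 pausing and elongation factors 3 fell and 4 did not pass, and of 9 polymerase and other kinase genes 2 rose and 4 fell.

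**Figure D5:**
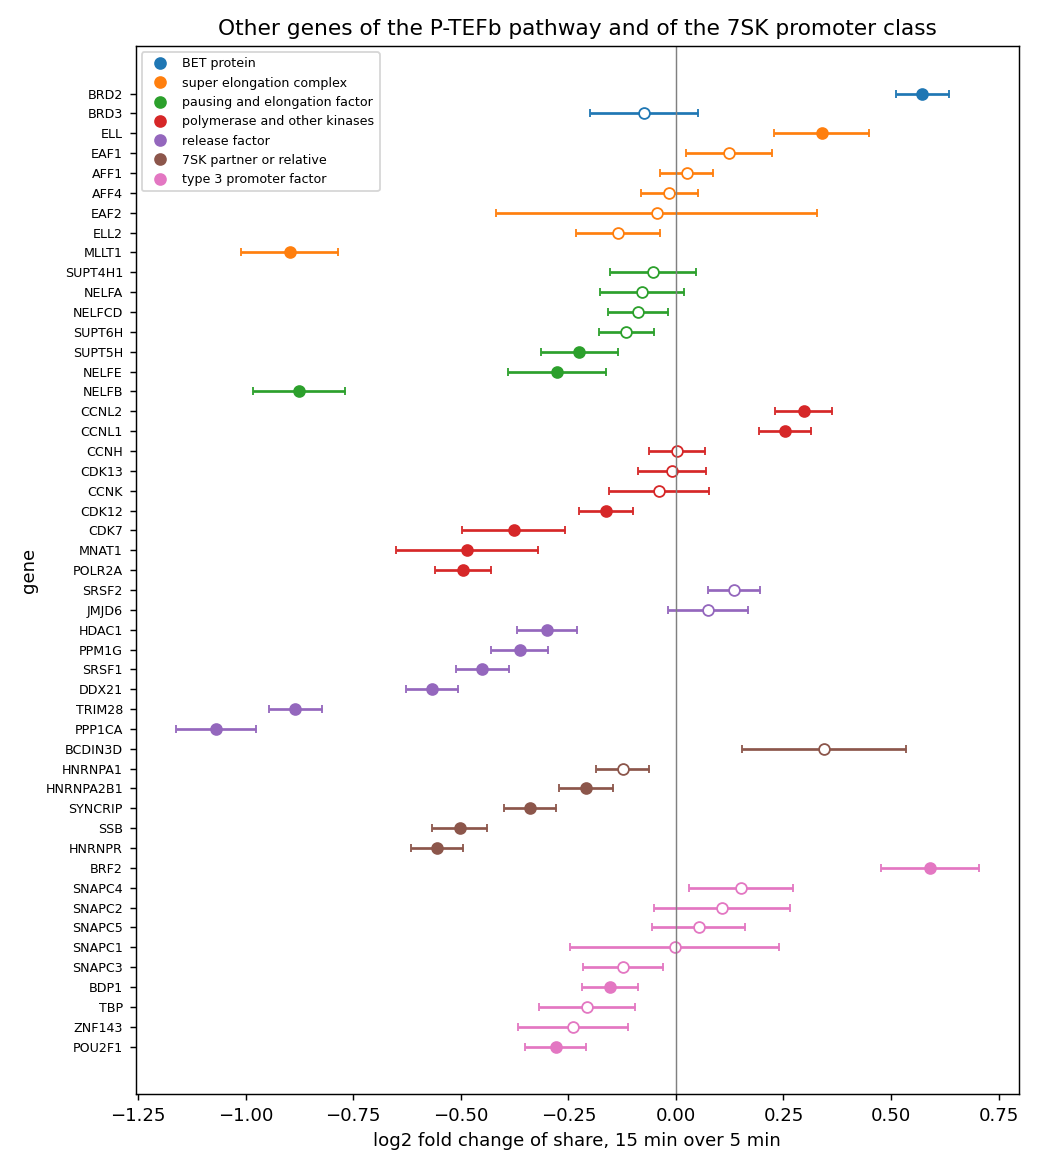
Share-scale log2 fold change, 15 min over 5 min, of tested pathway genes and the 10 type 3 promoter factor genes described next, coloured by role, with standard errors. Filled points passed the edgeR test, which among the pathway genes were 4 higher and 18 lower, with BRD2 at 0.57 and PPP1CA at -1.07.

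The 7SK gene is driven by a type 3 polymerase III promoter, which lies upstream of the transcribed bases and is bound by the SNAPc complex and by a TFIIIB form that contains BRF2. Of 10 such factor genes, 1 rose in share, 2 fell and 7 did not pass, counts near the shares over all genes (16.8% higher and 21.3% lower). BRF2 was at 54.7 CPM after 15 min and 36.2 CPM after 5 min (log2 0.59, edgeR adjusted p = 2.03e-06). POU2F1 fell by 0.28 (edgeR adjusted p = 0.000418), a call lost without 15 min replicate 1 (edgeR adjusted p = 0.111, in a range of 4.12e-05 to 0.111 over 8 alternatives). BDP1 fell by 0.15 (edgeR adjusted p = 0.0478), lost under 6 of 8 alternatives (adjusted p of 0.0174 to 0.585 by edgeR or DESeq2). SNAPC3 differed by -0.12 (edgeR adjusted p = 0.306).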

How the data were processed

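Gene read counts of the human and fly genes, from 4 libraries, and a synthesis rate score per gene were deposited by the authors. The deposited counts are whole numbers, not normalized. Tools named are bcl2fastq 2.17.1.14, STAR 2.7, featureCounts of Subread 2.0.1 and edgeR, with builds hg38 and dm6, per the submitters' processing notes. The strand setting, the counted feature and the unit and formula of the rate score deposited by the authors were not stated in the labels or headers, so they are not given here. The SE values given come from fits that include the spread between libraries. For edgeR each was taken as the size of the log2 difference over the square root of the quasi-likelihood F.

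Human counts were fitted with edgeR 4.0.16 (quasi-likelihood test, R 4.3.3) on label time over all genes kept by filterByExpr (minimum count 10), with Benjamini-Hochberg adjustment over all 17322 genes and a threshold of 0.05. Library sizes were fly totals (fly scale) or human totals with TMM factors (share scale). The script was tested on simulated data. DESeq2 1.42.0, other scaling, no filter, a replicate block and leaving out each library were alternatives. Gene positions are from GENCODE 29. Local alignments used Biopython 1.88, and motifs were searched as exact letters.

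The members, the gene lists and the tests were chosen with earlier results of these data known. Named are all 8 members, and of each list the 3 genes with the highest mean CPM and, in each direction, the 3 with the smallest p among those called. For pseudogenes and polymerase III RNAs the 3 with the most reads are named, and for likeness to RN7SK the 5 nearest genes (mean log2 CPM 3 or more, prior count 2). ELL, MLLT1, MT-CO1 and the polymerase III RNAs with 0 reads were named after their values were seen. 1 gene of the pathway list is not reported here by name.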

Additional observations from a re-analysis of the deposited data

How the results depend on the processing

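With 2 libraries per label time, leaving out 1 moved several values. RN7SK ranged between -1.24 and -0.37 on the fly scale and between -2.92 and -1.99 in share, always lower after 15 min. Members called lower on the fly scale numbered 0 with DESeq2 and 0 to 1 when a library was left out. Members called higher in share numbered 2 with DESeq2, 2 to 4 when a library was left out and 6 with scaling by total counts, which added HEXIM1 and HEXIM2. Members called lower in share numbered 1 with the replicate block, 1 with DESeq2 and 0 to 1 when a library was left out. Other pathway genes called higher numbered 7 with scaling by total counts and 2 to 4 when a library was left out, and those called lower 12 with scaling by total counts, 13 with DESeq2 and 14 to 15 when a library was left out. Type 3 promoter factors called lower numbered 1 with scaling by total counts, 1 with no filter, 1 with DESeq2 and 0 to 2 when a library was left out. SNAPC3 ranged between -0.31 and 0.021 when a library was left out, and changed sign without 15 min replicate 1 (edgeR adjusted p = 0.919, in a range of 0.0316 to 0.919 over 8 alternatives). The causes were not tested.

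Over all genes, 2915 were called higher and 3692 lower in share, against 923 higher and 2370 lower with DESeq2. Scaling by total counts moved the median of all genes to 0.13 (log2), against 0.03 with TMM, and 60.4% of its calls were higher, against 44.1%. Libraries with the same replicate number deviated together only weakly (correlation 0.088 over 11861 genes), so the numbers are not taken as pairs. With the replicate block RN7SK was -0.77 on the fly scale and -2.42 in share, and 3080 genes were called higher and 3878 lower in share.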

Other observations

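GTF3C1 and BRF1, factors of the internal polymerase III promoters that the 7SK gene does not use, differed in sign in share. GTF3C1 was at 81.4 CPM after 15 min and 111 CPM after 5 min (log2 -0.45, edgeR adjusted p = 4.47e-07), and BRF1 at 64.5 CPM after 15 min and 54.2 CPM after 5 min (log2 0.25, edgeR adjusted p = 0.036).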
